A study of Arabidopsis thaliana with 6 samples.

Results

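The cysteine-rich receptor-like kinases (CRKs) of Arabidopsis thaliana were followed as a family of 40 genes, among 23022 genes listed in at least 1 library. Members were taken by locus identifier alone: 19 form a tandem array on chromosome 4, from CRK5 (AT4G23130) to CRK24 (AT4G23320), and 21 lie elsewhere, 16 of those also on chromosome 4. The list was selected on family membership with the log2 fold changes of 17ab over WT from an earlier analysis of these libraries known, and it applies no threshold, so the values of its members in that contrast are a description and no test is made of the family as a whole. Messenger RNA came from whole seedlings harvested after 10 days on plates, in 3 libraries of the mutant that the labels call 17ab and 3 libraries of wild type (WT). The labels give neither the genes mutated in 17ab nor the accession of WT, and they name no stress treatment.

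CRKs are membrane proteins with an extracellular part built of DUF26 domains, which carry a conserved pattern of cysteines, a membrane-spanning helix and a cytosolic serine/threonine kinase. Plants hold many of them, often as tandem copies, and the family is known for transcripts that respond to pathogens, salicylic acid and reactive oxygen, and for roles in cell death, immunity and growth. The unfolded protein response, named in the title of the series, matches the folding capacity of the endoplasmic reticulum to demand, and secreted and membrane proteins such as the CRKs fold in that compartment.

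Expected counts summed to 6261789 to 6292461 per library in 17ab and to 5968854 to 6198230 in WT, which puts 3 counts at 0.477 to 0.503 CPM (counts scaled to the library total). No label ties the libraries to separate plates or cultures, so the spread behind each p-value is that of these 6 samples and may be technical. Because the labels name no mutated gene, they give no target to check. The transcripts of 3 stress sensors were all lower in 17ab. In FPKM (fragments scaled by gene length and library total), bZIP17 had 1.90 to 2.08 in 17ab against 10.2 to 11.3 in WT, IRE1A 3.73 to 4.06 in 17ab against 12.1 to 12.6 in WT, and IRE1B 4.52 to 5.27 in 17ab against 7.81 to 8.24 in WT. Transcripts of shoot (RBCS1A, 8800 to 9620 FPKM in 17ab and 9849 to 11650 in WT) and of root (PYK10, 829.9 to 1003 FPKM in 17ab and 806.8 to 871.7 in WT) were both present, as the label of whole seedlings requires. GL2, listed here with the root markers, was the only 1 of the 8 shoot and root markers past the edgeR threshold, at -0.35 ± 0.10 (log2, 17ab over WT, ± SE). The other root markers stood at 0.07 ± 0.13 (SHR), -0.03 ± 0.11 (SCR) and 0.08 ± 0.07 (PYK10), so the value of GL2 alone is no measure of root RNA. Seed and pollen markers summed to 0.58 to 0.96 and 2.14 to 2.85 FPKM in 17ab, and to 1.46 to 3.49 and 2.13 to 2.78 FPKM in WT. Among them the seed protein gene CRA1 was lower in 17ab (-1.50 ± 0.38), and the part of such RNA in the results was not tested. Over all 17854 genes tested with edgeR's quasi-likelihood test, 2515 passed an adjusted p of 0.05, 1352 higher and 1163 lower in 17ab. The higher share of these calls was 53.8%, and 43.2% with an offset for GC content and gene length.

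CRK transcripts were mostly higher in 17ab, and no tested member was lower past the threshold. Of 27 tested members 14 rose, which is 51.9%, while 7.57% of all tested genes rose. None fell, where 6.51% of all tested genes fell, and none had an unadjusted p under 0.05 with a negative change. DESeq2 also called no member lower. The median log2 fold change of the tested members was 0.51, and that of all tested genes -0.002. Changes were small for most members, and 4 of the 14 rose at least 2-fold: CRK14, CRK6, CRK5 and CRK15, all in the array. The 3 values in 17ab all lay above the 3 WT values for 15 tested members (55.6%), and this was so for 18.2% of all tested genes. The number of risen members was 7 of 28 tested without WT replicate 2 and 7 of 29 without 17ab replicate 3. It was 9 of 28 without WT replicate 1 and 9 of 29 without WT replicate 3. With the offset for GC content and length 8 of 27 rose, and with DESeq2 9 of 38 fitted. Of all genes in these fits 4.91%, 6.11%, 5.09%, 5.17%, 6.14% and 3.81% rose, in the same order. The call held under all 15 other settings for 6 members, CRK5, CRK6, CRK14, CRK17, CRK18 and CRK2.

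**Figure D1:**
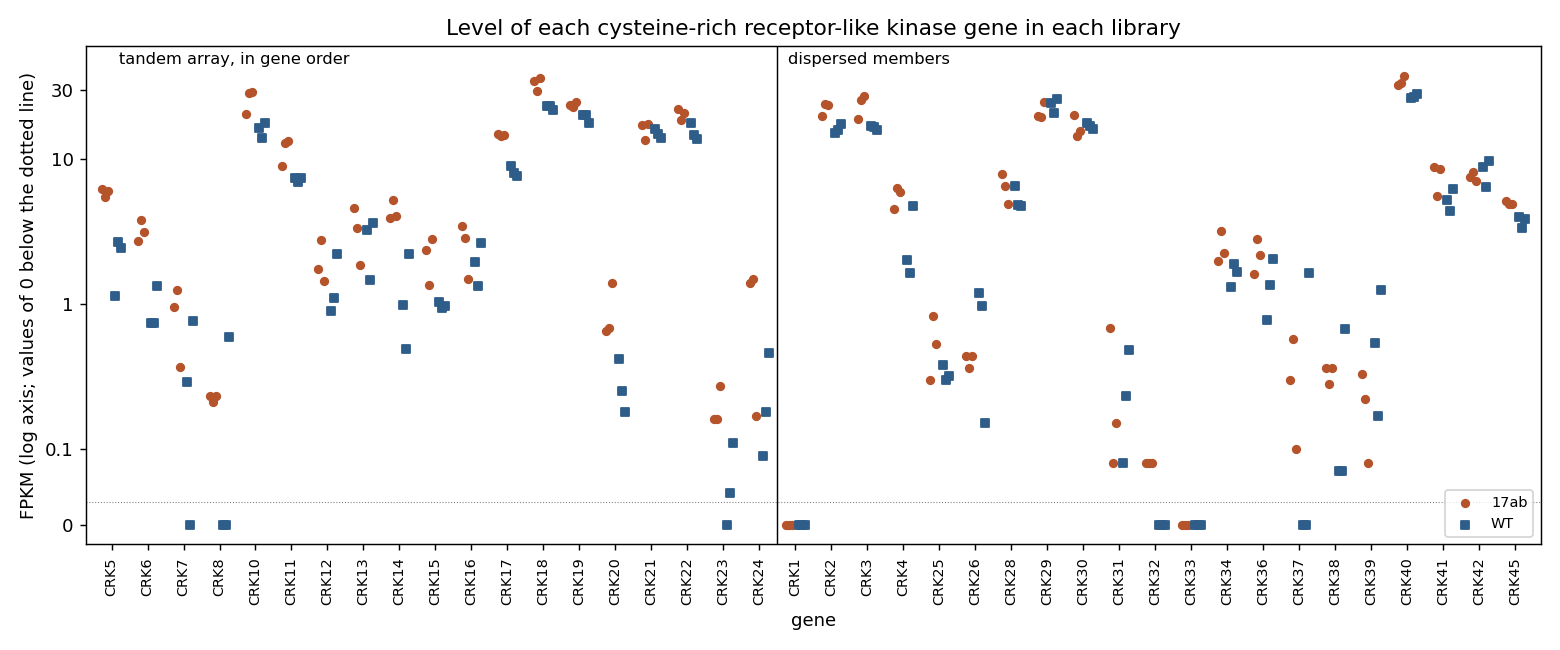
FPKM of each of the 40 members on a log axis, with 3 points for 17ab (round) and 3 for WT (square); values of 0 are drawn below the dotted line. Array genes run in their order on chromosome 4 and dispersed genes by number. Levels span from 0 to 37.2 FPKM, and the points of 17ab lie above those of WT without overlap for CRK5, CRK6, CRK14 and CRK17, among others.

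Members differed widely in level. Averaged over the 6 libraries, 15 of the 40 had at least 5 FPKM and 14 had less than 1 FPKM, and CRK1 and CRK33 were listed in no library. The highest were CRK40 and CRK18. CRK40 had 32.4, 33.1 and 37.2 FPKM in 17ab replicates 1 to 3, against 26.2, 26.5 and 27.8 FPKM in WT replicates 1 to 3. The groups did not overlap, and the log2 fold change was 0.32 ± 0.08 (SE, edgeR adjusted p = 0.0157). It no longer passed with DESeq2, with the GC and length offset, or when WT replicate 1, WT replicate 2 or 17ab replicate 3 was left out.

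The tandem array spans 74.2 kilobases of chromosome 4 in the TAIR10.1 annotation and holds 21 protein-coding genes, of which 19 are members, 8 on the plus strand and 11 on the minus strand. It was tested for 15 of its genes, of which 10 rose and 5 did not pass. Their median log2 fold change was 0.53. The 5 largest point estimates of all tested members, from 1.1 to 1.82, belonged to array genes, CRK7 among them without passing the test.

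Among the first genes of the array CRK5 and CRK6 rose. CRK5 (AT4G23130), a salicylic acid-responsive kinase whose overexpression is known to trigger cell death, had 6.22, 5.42 and 6.01 FPKM in 17ab replicates 1 to 3, against 1.14, 2.69 and 2.43 FPKM in WT replicates 1 to 3. The groups were well apart, and the log2 fold change was 1.48 ± 0.23 (SE, edgeR adjusted p = 0.00116). All counts of CRK5 were whole numbers, and none of its 50-base transcript windows occurs in another gene. CRK6 (AT4G23140), known with its neighbour CRK7 for a part in the response to extracellular reactive oxygen, had 2.71, 3.80 and 3.15 FPKM in 17ab, against 0.74, 0.74 and 1.32 FPKM in WT. The groups were apart, with a log2 difference of 1.80 ± 0.29 (edgeR adjusted p = 0.00134), but its reads were in part divided with other genes in all 6 libraries. CRK7 (AT4G23150), at 0.95, 1.24 and 0.37 FPKM in 17ab and 0.29, 0 and 0.76 FPKM in WT, overlapped between the groups and did not pass (1.27 ± 0.69, edgeR adjusted p = 0.261). With 50.4 expected counts over the 6 libraries it was the lowest member to enter the test, and CRK26, with 48.0, was the highest left out.

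CRK10 (AT4G23180) and CRK11 (AT4G23190), also named RLK4 and RLK3, were more abundant and rose less. CRK10, of which an altered form is known to dwarf the plant, had 20.3, 28.6 and 28.8 FPKM in 17ab, against 16.3, 13.9 and 17.7 FPKM in WT. Replicate 1 of 17ab lay nearer to WT than the other two, and the log2 fold change was 0.59 ± 0.14 (edgeR adjusted p = 0.0133). CRK11 showed the same order, with 8.86, 12.9 and 13.2 FPKM in 17ab, against 7.37, 6.95 and 7.42 FPKM in WT, a log2 difference of 0.53 ± 0.15 (edgeR adjusted p = 0.0374). The annotation lets the ends of these genes overlap on opposite strands, and no source used here says whether the counting was stranded, so reads from the overlap cannot be told apart. Of 50-base transcript windows, 0.315% in CRK10 and 0.272% in CRK11 also occur in another gene, on either strand. CRK10 did not pass when WT replicate 2 or 17ab replicate 3 was left out, and CRK11 passed with no library left out other than 17ab replicate 1.

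In the middle of the array CRK14 (AT4G23220) had 3.92, 5.20 and 4.02 FPKM in 17ab, against 0.98, 0.49 and 2.19 FPKM in WT. It had the largest log2 fold change of the family, 1.82 ± 0.36 (edgeR adjusted p = 0.00447), with WT libraries that spread more than those of 17ab. Its neighbour CRK15 (AT4G23230) had 2.35, 1.34 and 2.78 FPKM in 17ab, against 1.03, 0.94 and 0.97 FPKM in WT. These groups were also apart, but the change of 1.1 ± 0.34 (edgeR adjusted p = 0.0450) was close to the threshold and was lost in 10 of the 14 other settings that tested it. Both genes had whole counts only. CRK12, at 0.51 ± 0.35, did not pass. CRK13 (AT4G23210), whose overexpression is known to raise salicylic acid and resistance to bacteria, had 4.61, 3.31 and 1.85 FPKM in 17ab and 3.24, 1.45 and 3.61 FPKM in WT, groups that overlapped throughout (0.20 ± 0.34, edgeR adjusted p = 0.756).

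Next in the array, CRK17, CRK18 and CRK19 rose and CRK16 did not pass. CRK17 (AT4G23250), listed as EMB1290, had the lowest adjusted p of the family: 14.8, 14.3 and 14.7 FPKM in 17ab, against 8.98, 7.97 and 7.60 FPKM in WT, a log2 difference of 0.80 ± 0.12 (edgeR adjusted p = 0.000754). CRK18 (AT4G23260), the highest of the array, had 34.2, 29.2 and 36.0 FPKM in 17ab, against 23.2, 23.1 and 21.6 FPKM in WT, a log2 difference of 0.53 ± 0.09 (edgeR adjusted p = 0.00210). CRK19 (AT4G23270), which like CRK5 is known to trigger cell death when overexpressed, had 23.5, 22.9 and 24.5 FPKM in 17ab, against 20.2, 20.0 and 17.6 FPKM in WT. Its groups did not overlap, yet its change of 0.27 ± 0.08 (edgeR adjusted p = 0.0493) lay just inside the threshold and was lost in 13 of 15 other settings, every one without a single library among them. CRK16 (AT4G23240) had 3.44, 2.84 and 1.48 FPKM in 17ab and 1.95, 1.32 and 2.61 FPKM in WT. It overlaps CRK17 on the same strand in the annotation, and its log2 fold change was -0.02 ± 0.36 on counts, whereas its mean FPKM was higher in 17ab (2.59) than in WT (1.96), since the length behind its FPKM differs between libraries.

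At the far end of the array CRK22 (AT4G23300) had 21.9, 18.6 and 20.8 FPKM in 17ab, against 17.7, 14.7 and 13.7 FPKM in WT. The groups were apart and the log2 fold change was 0.38 ± 0.11 (edgeR adjusted p = 0.0322), a call lost in 8 of 15 other settings. Its reads were in part divided in all 6 libraries. Of its 50-base transcript windows 14.3% also occur in another gene, and the most shared gene is CRK13, which did not pass. CRK21 (AT4G23290), of like abundance, did not pass: 17.0, 13.4 and 17.4 FPKM in 17ab and 15.96, 14.8 and 13.9 FPKM in WT (0.09 ± 0.11, edgeR adjusted p = 0.669). CRK8, CRK20, CRK23 and CRK24 had too few counts to be tested over all 6 libraries. CRK24, with 1.40, 1.49 and 0.17 FPKM in 17ab and 0.09, 0.18 and 0.46 FPKM in WT, entered the test without 17ab replicate 3 and then passed (edgeR adjusted p = 0.0122). Of the untested array genes CRK20 and CRK23 had every 17ab value above every WT value, at 0.65 to 1.40 FPKM in 17ab against 0.18 to 0.42 FPKM in WT for CRK20. Reads of CRK20 were in part divided in all 6 libraries. CRK23 had only 3 to 5 counts per library in 17ab and 0 to 2.01 in WT. How often untested genes separate in this way was not counted, so nothing is read from these 2 genes.

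Of 5 tested genes on each side of the array, 1 of 10 passed, AT4G23050, named after its value was seen, at 0.47 ± 0.13. The 10 flanking genes had log2 fold changes from -0.17 to 0.62 and a median of 0.14. CRK9 (AT4G23170), a gene within the array that is not among the 40 members, rose by 1.1 ± 0.16 on the log2 scale (edgeR adjusted p = 0.000781), with 14.95, 12.1 and 12.9 FPKM in 17ab, against 5.93, 4.74 and 7.57 FPKM in WT. Like those of CRK6, the reads of CRK9 were in part divided with other genes in all 6 libraries.

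**Figure D2:**
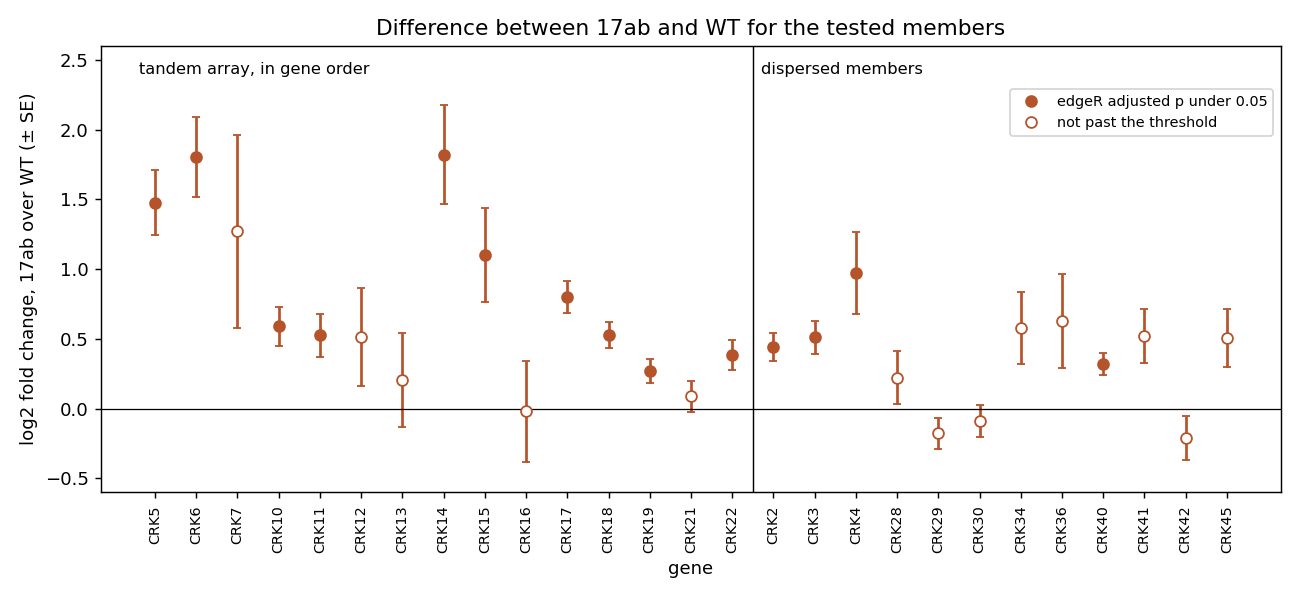
Log2 fold change of 17ab over WT (± SE) for the 27 tested members, array genes in gene order at the left and dispersed genes at the right; filled points passed an edgeR adjusted p of 0.05. Point estimates are above 0 for 14 of 15 array genes and 9 of 12 dispersed genes, and no filled point lies below 0.

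Among dispersed members, 4 of 12 tested rose (33.3%, against 66.7% of tested array members) and 8 did not pass, with a median log2 fold change of 0.47. Dispersed here means outside the array, and some of these genes lie close together themselves, such as CRK30 to CRK33 on chromosome 4. The difference between the array and the dispersed set was not tested. CRK2 (AT1G70520), which is known to phosphorylate the oxidase RBOHD, had 19.6, 23.9 and 23.3 FPKM in 17ab, against 15.01, 15.8 and 17.5 FPKM in WT. The groups were apart, with a log2 difference of 0.44 ± 0.10 (edgeR adjusted p = 0.00969) that passed in every other setting. Its tandem neighbour CRK3 (AT1G70530) had 18.9, 25.4 and 27.2 FPKM in 17ab, against 16.8, 16.6 and 15.9 FPKM in WT, a log2 difference of 0.51 ± 0.12 (edgeR adjusted p = 0.0128) that did not pass when WT replicate 3 or 17ab replicate 3 was left out. CRK4 (AT3G45860), another member known to cause cell death when overexpressed, had 4.48, 6.26 and 5.86 FPKM in 17ab and 2.01, 1.62 and 4.72 FPKM in WT. WT replicate 3 lay above the lowest 17ab library, so CRK4 was the single called member whose groups overlapped (0.97 ± 0.30, edgeR adjusted p = 0.0439), and its call was lost in 7 of 15 other settings. Without WT replicate 3 its log2 fold change was 1.57 (edgeR adjusted p = 0.00165).

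Several dispersed genes as abundant as the risen ones did not pass. CRK29 (AT4G21410) had 19.7, 19.3 and 24.7 FPKM in 17ab and 24.3, 20.7 and 25.8 FPKM in WT (-0.18 ± 0.11, edgeR adjusted p = 0.346). CRK28 (AT4G21400), its neighbour, known to join the flagellin receptor complex of FLS2 and BAK1, did not pass either (0.22 ± 0.19, edgeR adjusted p = 0.495). CRK30 (AT4G11460) had 19.9, 14.3 and 15.6 FPKM in 17ab and 17.7, 16.9 and 15.98 FPKM in WT (-0.09 ± 0.11, edgeR adjusted p = 0.664). CRK42 (AT5G40380) had 7.49, 8.09 and 7.08 FPKM in 17ab and 8.80, 6.36 and 9.70 FPKM in WT (-0.21 ± 0.16, edgeR adjusted p = 0.427). Groups overlapped in CRK28, CRK29, CRK30 and CRK42. CRK34 and CRK45 had every 17ab value above every WT value but did not pass, at 0.58 ± 0.26 and 0.50 ± 0.21. CRK45 (AT4G11890), also named ARCK1, is known as a partner of CRK36 in the response to abscisic acid, and CRK36 itself stood at 0.63 ± 0.34 with overlapping groups. CRK41 was just outside the threshold (0.52 ± 0.19, edgeR adjusted p = 0.0937) and passed without 17ab replicate 2 (0.71 ± 0.17, edgeR adjusted p = 0.0159). In the untested dispersed genes no mean was above 0.767 FPKM in either genotype, and CRK32 was listed in all 17ab libraries at 0.08 FPKM, with 3.02 counts in total, and in no WT library.

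Summed over genes, a measure that depends less on how reads are divided among them, the array reached 169.0, 168.3 and 178.5 FPKM in 17ab, against 120.5, 110.5 and 117.0 FPKM in WT. That is 172.0 ± 5.69 FPKM in 17ab and 116.0 ± 5.04 FPKM in WT (SD, n = 3 each), a ratio of 1.48. The dispersed members summed to 150.3, 155.7 and 165.3 FPKM in 17ab, against 130.7, 122.0 and 140.4 FPKM in WT, a ratio of 1.20. In both sets every 17ab library was above every WT library. The ratio of the array was 1.42 on CPM with trimmed-mean library sizes and 1.49 without CRK18, its highest gene.

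**Figure D3:**
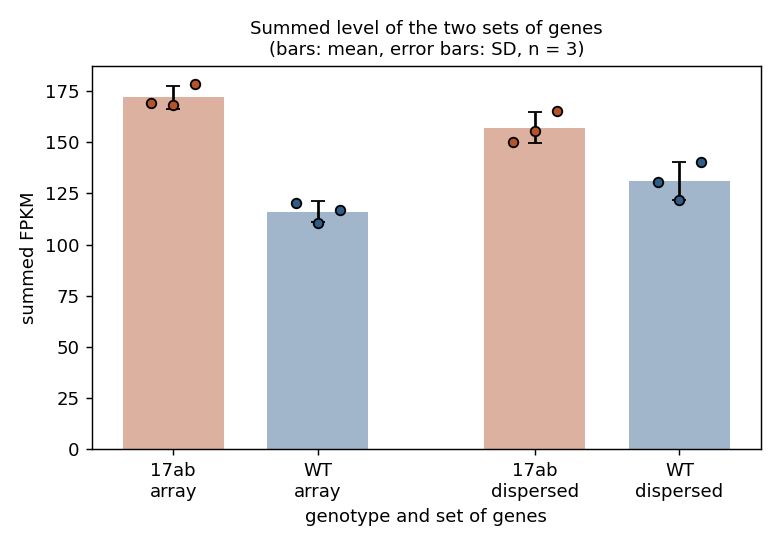
Summed FPKM of the 19 array genes and the 21 dispersed genes; points are libraries, bars the mean and error bars the SD over 3 libraries. For the array, 17ab libraries lie between 168.3 and 178.5 and WT libraries between 110.5 and 120.5.

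Members of the family are alike in sequence, and reads had been divided between genes for many of them. Coding sequences of array genes had a median identity of 79.4% to their closest relative in the family, with a highest pair of 89.8% (CRK19 and CRK20), and dispersed genes had a median of 69.7%. Expected counts were not whole (tolerance 1e-06) in at least 1 library for 14 of 19 array genes and 9 of 21 dispersed genes, and for 12.8% of all tested genes. The share of 50-base transcript windows that also occur in another annotated gene, on either strand, was highest in CRK16 (32.8%), CRK17 (23.9%) and CRK6 (22.9%). For CRK16 and CRK17 the most shared gene is the other of the pair, which overlap in the annotation, and for CRK6 it is CRK8. Of the 12 tested members with whole counts in every library 6 rose, with a median log2 fold change of 0.51, and of the 15 with divided reads 8 rose, with a median of 0.52. Array genes with whole counts had 3 of 5 risen, CRK5, CRK14 and CRK15. Rounding all counts down left 14 risen members.

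**Figure D4:**
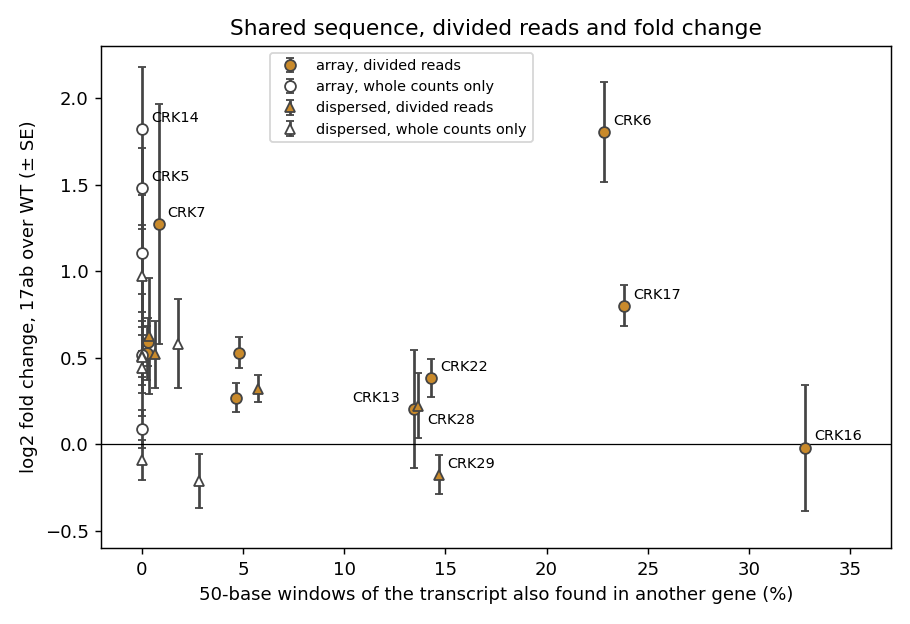
Share of a transcript's 50-base windows found in another annotated gene (horizontal axis, percent) against log2 fold change of 17ab over WT (± SE) for the 27 tested members; filled points had divided reads in at least 1 library. CRK5 and CRK14, with no shared window, have log2 fold changes of 1.48 and 1.82, next to 1.80 for CRK6 with 22.9% shared.

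The encoded proteins had a median of 661.0 residues, and 36 of the 40 held the cysteine pattern of the DUF26 domain (a cysteine, 8 other residues, a cysteine, 2 residues and a cysteine) 2 times. CRK17 held it 4 times, CRK23 3 times and CRK24 1 time, and CRK45, the shortest at 354 residues, had none. Exonic GC content had a median of 40.7% in the tested members (41.1% in the array, 39.6% dispersed), and 41.2% in all tested genes. Over all 40 members it was 41.0%. Exon length had a median of 2444 bases over all 40 members, untested ones included, longer than the 1829 bases of all tested genes.

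Upstream sequence was examined for all members, since 10 of the 15 tested array genes rose. The letters TTGAC are the core of the W-box, which WRKY transcription factors bind, and were sought on both strands in the 250 bases before each annotated start in RefSeq's TAIR10.1. They occur in 14 of 19 array genes (73.7%), 14 of 21 dispersed genes (66.7%) and 44.9% of 27443 protein-coding genes. At least 2 copies were found in 10 of 19 array genes (52.6%), 6 of 21 dispersed genes (28.6%) and 14.1% of all these genes. Among the 14 risen members 9 held any copy (64.3%), and among the other 13 tested members 7 did (53.8%). Of the risen members 7 held at least 2 copies, all of them array genes and no dispersed one. Among the other tested members 2 did, CRK16 (3 copies) and CRK41 (4 copies). Whether copies go with the rise was not tested. The longer forms TTGACC or TTGACT, which contain TTGAC, occur at least 2 times in 9 of 19 array genes, 2 of 21 dispersed genes (9.52%) and 6.18% of all these genes. CRK5, CRK6 and CRK11 are shown for their clustered copies, and CRK21 as an array gene of like abundance to the risen ones with none. They were picked with the calls known. Opposite cases in the array are CRK16, which did not pass and held 3 copies, and CRK19 and CRK22, which rose without a copy. Capitals mark TTGAC or its reverse complement GTCAA, each sequence runs 5′ to 3′ toward the gene, and none overlaps another annotated gene.
CRK5, chr4:12120221-12120470, minus strand: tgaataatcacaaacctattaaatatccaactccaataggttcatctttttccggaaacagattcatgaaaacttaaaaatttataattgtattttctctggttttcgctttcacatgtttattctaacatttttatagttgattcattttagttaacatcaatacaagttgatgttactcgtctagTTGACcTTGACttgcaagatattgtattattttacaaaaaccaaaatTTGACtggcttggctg
CRK6, chr4:12121119-12121368, plus strand: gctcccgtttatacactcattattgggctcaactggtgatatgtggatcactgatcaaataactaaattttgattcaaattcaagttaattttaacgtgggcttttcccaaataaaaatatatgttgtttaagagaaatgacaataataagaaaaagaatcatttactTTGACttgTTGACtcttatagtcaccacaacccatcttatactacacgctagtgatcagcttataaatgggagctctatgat
CRK11, chr4:12143859-12144108, minus strand: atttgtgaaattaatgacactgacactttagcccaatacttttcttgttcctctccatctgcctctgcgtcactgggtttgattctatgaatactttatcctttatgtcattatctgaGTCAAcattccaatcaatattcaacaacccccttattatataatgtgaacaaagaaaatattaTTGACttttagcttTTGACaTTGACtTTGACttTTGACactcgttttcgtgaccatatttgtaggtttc
CRK21, chr4:12180937-12181186, minus strand: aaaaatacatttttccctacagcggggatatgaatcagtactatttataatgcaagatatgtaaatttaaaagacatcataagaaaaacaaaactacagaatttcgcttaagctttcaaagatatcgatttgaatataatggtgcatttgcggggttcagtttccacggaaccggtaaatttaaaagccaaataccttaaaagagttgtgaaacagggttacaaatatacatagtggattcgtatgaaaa

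CRK11 had 6 copies, of which 5 lie between 69 and 36 bases before its start, CRK5 had 3 and CRK6 had 2. CRK19, CRK22, CRK2, CRK3 and CRK40 rose without a copy in this window. The letters TGACG, the core of the element that TGA factors bind, occur in 13 of 40 members (32.5%) and 18.6% of all these genes. CACGTG, the G-box, occurs in 1 member and 6.49% of all these genes, and CCAAT followed after 10 bases by CACG, the ER stress response element, in no member and 0.689% of all these genes. Matches describe letters, and binding was not measured.

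A list of 22 other genes linked to the CRKs by domain or pathway was written with earlier results known. Of 20 tested, 5 rose (25%, against 7.57% of all tested genes) and 1 fell (5%, against 6.51%), with a median log2 fold change of 0.36. RBOHD, the NADPH oxidase of the immune oxidative burst, had 38.4, 42.1 and 38.3 FPKM in 17ab, against 27.2, 24.7 and 28.2 FPKM in WT, and rose by 0.54 ± 0.08 on the log2 scale (edgeR adjusted p = 0.000654). RBOHF, FLS2, BAK1 and BIK1 did not pass, with changes from -0.01 to 0.24. Among the PDLPs, plasmodesmal proteins that carry DUF26 domains but no kinase, PDLP5, known to close plasmodesmata, rose by 0.84 ± 0.21 and PDLP3 fell, with a log2 fold change of -0.28 ± 0.08. The other 4 tested PDLPs did not pass. Of the factors that bind the W-box, WRKY33 rose by 0.88 ± 0.11 and WRKY18 by 0.57 ± 0.17 (edgeR adjusted p = 0.0466), while WRKY40 and WRKY70 did not pass. Of 5 salicylic acid genes PR1 rose by 0.92 ± 0.28 (edgeR adjusted p = 0.0449), and ICS1, EDS1, PAD4 and NPR1 did not pass. The PR1 groups overlapped, at 15.2 to 24.7 FPKM in 17ab and 6.23 to 17.2 FPKM in WT. Other settings are not given for these related genes. Besides CRK9, CRK genes outside the members gave no call: CRK27 stood at 0.78 ± 0.35, AT1G70740 at 0.01 ± 0.18, and AT4G00960 and AT4G11500 were too low to be tested.

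WT replicate 3 had the highest WT values of PR1, ICS1, EDS1 and PAD4, of the 5 salicylic acid genes, and the lowest of NPR1, at 11.5 FPKM against 14.3 and 11.9 FPKM in WT replicates 1 and 2. WRKY70 had 21.8, 35.1 and 22.1 FPKM in 17ab, against 12.1, 7.36 and 26.0 FPKM in WT replicates 1 to 3, and PAD4 had 9.52, 9.58 and 8.71 FPKM in 17ab, against 5.29, 4.83 and 11.3 FPKM in WT. Of the 38 listed members, 22 had their highest WT value in replicate 3, 13 in replicate 1 and 2 in replicate 2. In 17ab the highest value fell on replicate 1 for 11 members, replicate 2 for 12 and replicate 3 for 11, and the others had tied values. These splits were not counted over all genes, so whether they are particular to the members was not tested. CRK4, CRK12, CRK14 and CRK37 were among those high in WT replicate 3. Without that library 9 of 29 tested members rose, and 5.17% of all tested genes did. The log2 fold changes of CRK14 and CRK4 were then 2.53 and 1.57. They were the only called members whose fold moved by over 1.5 times when a single library was left out. The part of this library in the results was not tested otherwise.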

How the data were processed

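Polyadenylated RNA of 6 libraries, 3 of 17ab and 3 of WT, was analysed from 1 deposited table per library, which lists expected counts and FPKM values per gene, per the file headers. Genes missing from a table were taken as 0. Build TAIR10 and the tools HTSeq 0.6.0, STAR 2.4.0 and DESeq2 are named, without a role, in the submitters' processing notes. No source used here gives the program behind the expected counts or says whether it used strand. Of the expected counts the authors deposited, 91.4% to 91.8% per library were whole, and a count with decimals was read as holding reads divided between genes. The floor of 3 counts covers counting error only.

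Expected counts were rounded and tested in 1 fit of all libraries with edgeR 4.0.16 (R 4.3.3), quasi-likelihood test, trimmed-mean normalization, default expression filter and Benjamini-Hochberg adjustment over 17854 genes, at a threshold of 0.05. The SE is the size of the log2 fold change over the root of its F statistic. Names, gene order, transcripts and upstream sequence came from RefSeq's TAIR10.1, a later release than the authors' build, and no coordinates of the files were converted. Coding sequences were aligned with MAFFT 7.526, and identity was taken over pairs with at least 300 aligned bases.

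The members and lists were chosen with earlier results of these data known. Members given library by library were those called whose groups did not overlap, the 3 uncalled with the highest FPKM in each set, CRK4 for its overlapping groups, and CRK7 and CRK24 for their place at the expression filter. Others are named for a measure stated in the text. AT4G23050 and the members named for WT replicate 3 were named after their values were seen. Alternatives were DESeq2 size factors, no filter or 5 CPM in 3 libraries, each library left out, a replicate block, limma-trend (limma 3.58.1) on log2(FPKM + 1) or with a pseudocount of 0.1 (genes of 1 FPKM or more in 3 libraries), DESeq2 1.42.0, counts rounded down, and a loess offset (span 0.5) on GC content and length.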

Additional observations from a re-analysis of the deposited data

How the results depend on the processing

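No member fell in any of the 15 other settings, and 6 of the 14 risen members kept their call in all of them. The number of risen members was 8 with the offset for GC content and length (6 in the array, 2 dispersed) and 9 with DESeq2 (6 in the array), which called 1604 genes in all. Of all genes 6.14% rose with that offset and 3.81% with DESeq2. Without 1 library the number of risen members ran from 7 to 12, where 4.91% to 6.32% of all tested genes rose. There 5 to 8 were in the array and 1 to 4 dispersed, and 1571 to 2090 genes were called in all. These counts include CRK41, which passed without 17ab replicate 2, where 11 of the 14 kept their call, and CRK24, which passed without 17ab replicate 3, where 6 did. Fewer samples were tested there, and for the other settings the cause was not tested. Of the 14 calls, 8 were lost without at least 1 library, CRK19's without any of them. Among the 27 tested members the sign turned for 2, neither of which passed in any setting. With each library left out in turn CRK13 ran from -0.12 (without WT replicate 2) to 0.48 (without 17ab replicate 3), and was -0.11 without 17ab replicate 1. CRK16 ran from -0.23 (without WT replicate 1) to 0.43 (without WT replicate 3), was 0.20 without 17ab replicate 3, and stood at 0.0031 with the replicate block, 0.26 with limma-trend on log2(FPKM + 1) and 0.35 on log2(FPKM + 0.1). The replicate numbers are shared between genotypes. Deviations of same-numbered libraries had correlations of -0.00279, -0.108 and -0.0457, and no library correlated best with its own number. No shared effect of the numbers was seen, but this check cannot tell whether the samples were paired. With the replicate block 11 of 27 tested members rose, 7 in the array and 4 dispersed, and 5.87% of all tested genes rose. The ratio of summed FPKM stayed within its spread in all scales and without any single library. At totals of 5968854 to 6292461 counts per library 13 members were too low to be tested.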
